A study of Mus musculus with 6 samples.

Results

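The 31 genes described here encode the constitutive subunits of the 26S proteasome, chosen by mouse gene symbol from the 18124 genes listed. They are the alpha-ring genes Psma1 to Psma7, the beta-ring genes Psmb1 to Psmb7, the ATPase genes Psmc1 to Psmc6, and 11 Psmd genes of the regulatory particle. The interferon-inducible subunits were left out of the selection and are used for comparison. All 31 were listed, and all 31 passed the filter on low counts, with mean levels between 19.1 and 299 CPM (counts scaled to the TMM-adjusted library size). RNA was sequenced from mesenchymal stem cells of mouse quadriceps, sorted as live cells that carried both a collagen 1-eGFP reporter (genotype Col1-GFP) and the surface protein Sca-1, taken from 6 naïve male mice and used at passage 4. In the senescent-medium group (3 libraries) these cells were kept for 72 hours in conditioned medium of macrophages grown from bone marrow, which had received hydrogen peroxide at 300 µM (written µm in the labels) for 3 hours on 2 occasions, 3 days apart, before 14 more days in culture. In the control-medium group (3 libraries) the medium came from non-senescent macrophages, and their time in culture is not given. In both groups the macrophages came from wild type mice and were differentiated with M-CSF for 7 days, and the conditioned medium was a pool of 2 collections of 48 hours. Nothing in the labels ties the libraries of a group to separate animals, isolates or batches of medium, so the p-values speak only of the variation among these 6 libraries, and that may be technical.

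The proteasome is the main protease of the cytosol and nucleus and degrades proteins marked with ubiquitin. Its barrel-shaped 20S core has outer alpha rings that gate the entrance and inner beta rings that hold the proteolytic sites. The 19S regulatory particle caps the core: its base contains a ring of ATPases that unfold and thread the substrate, and its lid removes the ubiquitin chain. Subunit genes are transcribed together in mammalian cells when proteasome activity falls, largely through the transcription factor NRF1 (gene Nfe2l1), which acts at antioxidant response elements.

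The promoters of the subunit genes were searched for the core of that element, TGACNNNGC, on both strands, because NRF1 axis genes were among those that changed. In windows from 250 bases before to 50 bases after the start site, taken from RefSeq on build GRCm38.p6, 25 of the 31 genes had an entry, and Psmb1, Psmb2, Psmb7, Psmc3, Psmd3 and Psmd7 had none. The letters were present in 4 of the 25 genes (16.0%), against 3781 of 27025 genes with a window (14.0%). These matches are a description of letters and not evidence of binding. Each stretch of 80 bases that holds a match is given 5′ to 3′ on the gene's strand, with the match in capitals, which in Psmd12 and Psmc6 shows the element's complement because the match lies on the opposite strand.
Psmb6, chr11:70525277-70525356, plus strand: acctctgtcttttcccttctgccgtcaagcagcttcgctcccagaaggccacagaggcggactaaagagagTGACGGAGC
Psmb5, chr14:54617998-54618077, minus strand: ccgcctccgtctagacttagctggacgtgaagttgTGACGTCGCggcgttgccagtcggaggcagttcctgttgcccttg
Psmd12, chr11:107479278-107479357, plus strand: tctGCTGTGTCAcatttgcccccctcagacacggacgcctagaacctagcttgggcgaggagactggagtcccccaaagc
Psmc6, chr14:45329574-45329653, plus strand: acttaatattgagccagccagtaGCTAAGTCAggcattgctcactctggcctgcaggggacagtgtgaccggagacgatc
The match ended at the base before the start site in Psmb6 (−9 to −1) and lay at −47 to −39 in Psmb5, whereas it lay far upstream in Psmd12 (−247 to −239) and Psmc6 (−227 to −219). Of these 4 genes only Psmd12 passed the test between media, and it was lower in senescent macrophage medium.

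Library totals ran from 17228162 to 21659434 estimated counts, and the first principal component held 64% of the variance. Of the 10 stromal markers 9 were tested, of which 5 were called higher and 3 lower, and Lum was near 0. The share called was 88.9%, against 49.5% of all genes tested. The summed level of the stromal markers was 14430 to 14960 CPM in senescent-medium libraries and 11190 to 11290 CPM in control-medium libraries. Col1a1 and Col1a2 were higher (log2 fold change 0.49 and 0.54), Pdgfra and Pdgfrb were lower (−0.29 and −0.30), and the sorting marker Ly6a (Sca-1), at 1235 CPM in senescent-medium cells and 1206 CPM in control-medium cells, was the tested one that did not pass. Their part in the subunits' changes was not tested. Of 8 macrophage markers, Ptprc, Adgre1, Itgam and Fcgr1 were not listed, and the other 4 were at low levels, given beside the inducible subunits. Of 5 endothelial markers, Cdh5 and Tie1 were not listed and Pecam1 was near 0, while Tek averaged 26.9 CPM in senescent-medium cells and 23.8 CPM in control-medium cells, and Kdr was called higher, at 1.68 CPM in senescent-medium cells and 0.710 CPM in control-medium cells. Of 5 myogenic markers only Des was listed, at 5.15 CPM in senescent-medium cells and 1.63 CPM in control-medium cells. The Schwann cell factor Sox10 was not listed. In bulk RNA, fewer cells of a type and less RNA per cell cannot be told apart.

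The constitutive subunits changed little and in both directions. By edgeR's quasi-likelihood test with Benjamini-Hochberg adjustment over 14644 genes and a threshold of 0.05, 11 of the 31 were called (35.5%), against 49.5% of all genes tested. Psma6, Psma7, Psmb4, Psmc1, Psmd4 and Psmd8 were higher in senescent macrophage medium, and Psmd1, Psmd2, Psmd3, Psmd7 and Psmd12 were lower. Of all genes, 24.6% were called higher and 24.9% lower. The direction of this split depended on how libraries were scaled. With plain library totals in place of TMM factors, 3 members were called higher and 13 lower, the median log2 fold change of all tested genes was −0.082 in place of −0.001, and 50.5% of all genes were called, 17.7% higher and 32.9% lower.

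The size of the changes was small beside that of other genes. The median absolute log2 fold change was 0.084 over the members and 0.229 over all genes tested. The member that changed most, Psmd12, differed 1.21-fold, and 6302 tested genes (43.0%) had a larger change than any member. A change of at least 1.2-fold with a significant test was found for 1 of the 31 members, against 33.9% of all genes. The measurements were precise. The 95% interval of a member's log2 fold change extended 0.073 to 0.166 to either side, and the median coefficient of variation between libraries was 3.56% in senescent macrophage medium and 3.99% in control macrophage medium. For the 20 members that were not called, the intervals lay between −0.25 and 0.20 on the log2 scale. The libraries of the media did not overlap for 17 members (54.8%), of which 8 were above and 9 below in senescent macrophage medium, against 55.8% of all genes (27.8% above and 28.0% below). Summed over all members, the level was 2699.4, 2636.5 and 2693.2 CPM in the senescent-medium libraries and 2779.6, 2669.2 and 2623.2 CPM in the control-medium libraries. The groups overlapped, with a ratio of means of 0.995.

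**Figure D1:**
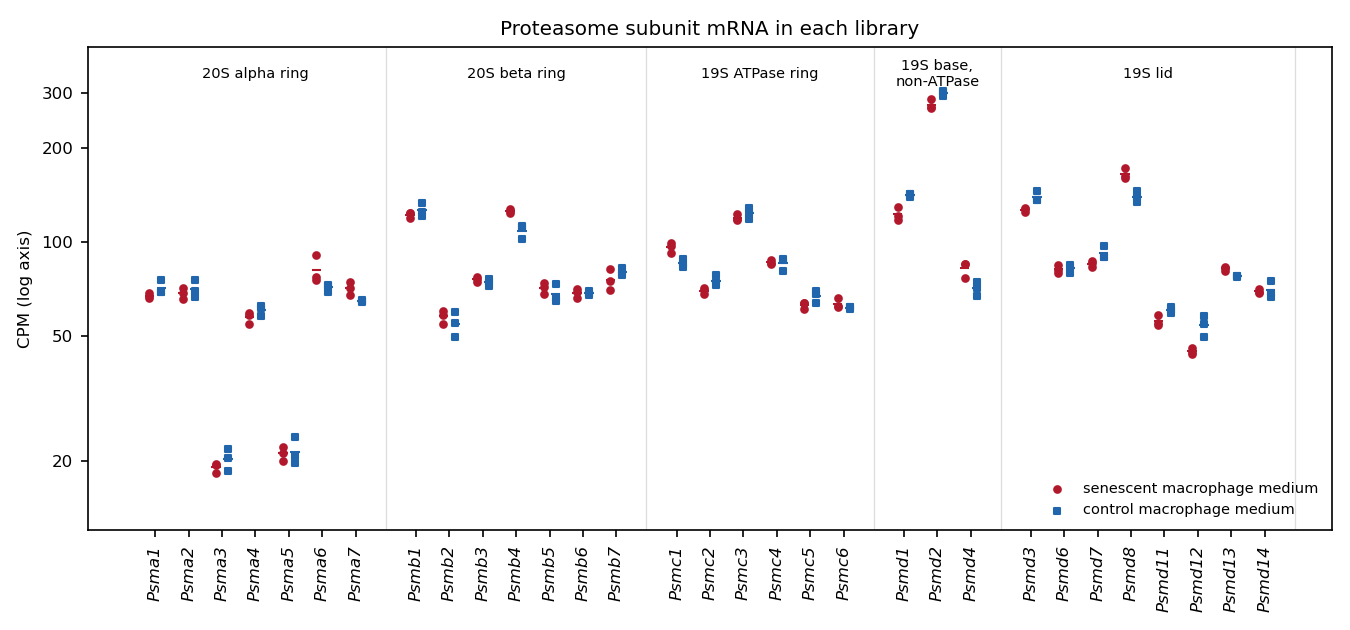
Level of each constitutive subunit in each library, in CPM on a log axis, with 3 senescent-medium libraries (red circles, left) and 3 control-medium libraries (blue squares, right) per gene and their means as lines. Subunits are grouped by subcomplex, and for most of them the gap between media is small beside the range of levels across genes, from 19.1 to 299 CPM.

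By subcomplex, 3 of 14 members of the 20S core were called (21.4%), all higher, and 8 of 17 members of the 19S particle (47.1%), 3 higher and 5 lower, against 49.5% of all genes. The share in the 19S particle was thus near that of all genes. The 5 lower members were 19S subunits that are not ATPases, but with plain library totals the core genes Psma1, Psma4, Psmb1 and Psmb7, the ATPases Psmc2, Psmc3 and Psmc5, and Psmd11 were also called lower. The difference between subcomplexes was not tested. The summed level of the 20S core was 985 ± 28.2 CPM in senescent macrophage medium and 963 ± 34.6 CPM in control macrophage medium (SD, n = 3), and the libraries overlapped. That of the 19S particle was 1692 ± 7.39 CPM in senescent macrophage medium and 1728 ± 48.0 CPM in control macrophage medium, also with overlap.

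**Figure D2:**
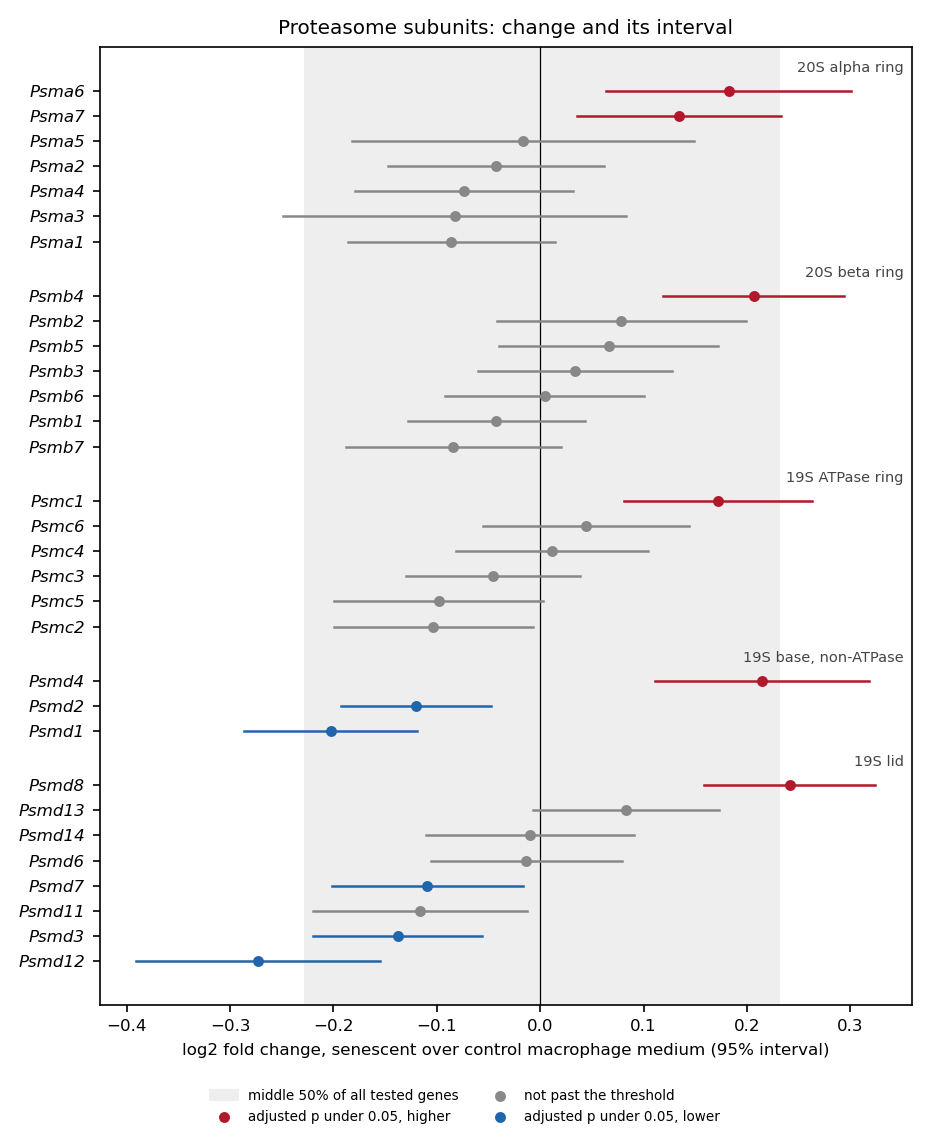
Log2 fold change of each constitutive subunit, senescent over control macrophage medium, with its 95% interval, by subcomplex. Red points are higher and blue points lower at an adjusted p under 0.05, grey points did not pass, and the grey band is the interquartile range of all tested genes; no point lies outside −0.27 to 0.24.

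In the alpha ring, whose N-terminal tails form the gate of the core, 2 of 7 members were called higher and none lower. The share called was 28.6%, against 49.5% of all genes, and the median log2 fold change was −0.042. Psma6 had 77.6, 75.5 and 90.8 CPM in senescent-medium libraries, against 73.0, 72.6 and 69.5 CPM in control-medium libraries. All 3 senescent-medium libraries stood above the control-medium ones, replicate 3 by a wider margin. The log2 fold change of Psma6 was 0.18 ± 0.057 (SE; edgeR adjusted p = 0.0107), and without that library it was 0.096 (adjusted p = 0.140), while without control-medium replicate 3 it was 0.16 (adjusted p = 0.0566). With plain library totals neither alpha-ring call held (adjusted p = 0.207 for Psma6 and 0.390 for Psma7). Psma7, which is also reported in human cells to bind regulators outside the proteasome, had 71.3, 67.8 and 74.4 CPM in senescent-medium libraries and 65.4, 64.7 and 64.6 CPM in control-medium libraries. Its groups did not overlap, and its log2 fold change was 0.13 ± 0.048 (edgeR adjusted p = 0.0216). That call was lost without senescent-medium replicate 1 or 3 (adjusted p = 0.0519 and 0.127) and without control-medium replicate 2 or 3 (adjusted p = 0.0555 and 0.0602). It was also lost under DESeq2, which called 5 members higher and 4 lower, against 37.4% of all genes.

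The other alpha-ring genes did not pass the test. Psma1 was the lowest by fold change, with 68.9, 66.1 and 67.2 CPM in senescent-medium libraries and 69.2, 75.9 and 69.2 CPM in control-medium libraries. Its senescent-medium libraries were all below the control-medium ones, with a log2 fold change of −0.086 ± 0.049 (95% interval −0.19 to 0.01; edgeR adjusted p = 0.151). For Psma2, Psma3, Psma4 and Psma5 the log2 fold changes were −0.042, −0.083, −0.074 and −0.017, and the libraries of all 4 overlapped between media.

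Of the 7 beta-ring genes, Psmb4 alone was called (14.3%, against 49.5% of all genes), and the median log2 fold change was 0.034. Psmb4, a structural subunit with no proteolytic site, had 127, 124 and 126 CPM in senescent-medium libraries and 113, 112 and 102 CPM in control-medium libraries. The groups were well apart, at 126 ± 1.52 and 109 ± 5.94 CPM (SD, n = 3 each), and the log2 fold change was 0.21 ± 0.043 (edgeR adjusted p = 1.59e-04). The catalytic subunits, which carry the threonine proteases, did not pass. Psmb6, the caspase-like subunit, had 69.4, 66.4 and 70.6 CPM in senescent-medium libraries and 68.6, 67.7 and 69.8 CPM in control-medium libraries. The groups covered each other, with a log2 fold change of 0.0042 (95% interval −0.09 to 0.10; edgeR adjusted p = 0.951).

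Psmb7, the trypsin-like subunit and the lowest of the ring by fold change, had 81.9, 74.9 and 70.3 CPM in senescent-medium libraries, against 82.6, 79.8 and 78.4 CPM in control-medium libraries. The groups overlapped, and the log2 fold change was −0.084 (95% interval −0.19 to 0.02; edgeR adjusted p = 0.175), though without senescent-medium replicate 1 it was −0.14 (adjusted p = 0.0292). Exons of Nek6 on the opposite strand cover 11.8% of the exon length of Psmb7, and the strand setting is not given. Psmb5, the chymotrypsin-like subunit and main target of the drug bortezomib, had 72.1, 68.3 and 73.9 CPM in senescent-medium libraries and 73.8, 66.5 and 64.6 CPM in control-medium libraries. Control-medium replicate 1 lay among the senescent-medium libraries and the other 2 below them, and the log2 fold change was 0.066 (95% interval −0.04 to 0.17; edgeR adjusted p = 0.301). Without that library Psmb5 was at 0.12 (adjusted p = 0.0466) and Psmb2, a structural subunit, at 0.14 (adjusted p = 0.0454), against 0.078 with all libraries. The log2 fold changes of the structural subunits Psmb1 and Psmb3 were −0.042 and 0.034.

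The ATPase ring pulls substrates into the core. Of its 6 members 1 was called (16.7%, against 49.5% of all genes), and the ring median was −0.017. Psmc1, one of the ATPases whose tail opens the gate of the core in yeast, had 92.5, 97.2 and 99.7 CPM in senescent-medium libraries and 88.1, 85.4 and 83.3 CPM in control-medium libraries. All senescent-medium libraries were above all control-medium ones, and the log2 fold change was 0.17 ± 0.044 (edgeR adjusted p = 0.00179). With plain library totals it was 0.091 (adjusted p = 0.0985). Psmc2 lay at the other end of the ring, with 71.4, 70.1 and 68.4 CPM in senescent-medium libraries and 78.3, 74.5 and 72.8 CPM in control-medium libraries. Its groups did not overlap, yet its log2 fold change of −0.10 ± 0.047 did not pass (edgeR adjusted p = 0.0687). Psmc5 was alike at −0.098 (adjusted p = 0.102), and passed without control-medium replicate 3 (−0.14, adjusted p = 0.0459). Psmc3, Psmc4 and Psmc6 had log2 fold changes of −0.046, 0.011 and 0.044. The summed level of the ring was 499.0 CPM in senescent macrophage medium and 499.1 CPM in control macrophage medium.

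The 3 other base subunits among the members were all called, 1 higher and 2 lower, against 49.5% of all genes called. The base subunit Adrm1, a ubiquitin receptor outside the selection, was not called (log2 fold change −0.0885, edgeR adjusted p = 0.222). Psmd4 is a receptor that binds ubiquitin chains on arriving substrates. It had 85.3, 76.7 and 85.2 CPM in senescent-medium libraries and 74.7, 67.4 and 71.4 CPM in control-medium libraries. Those groups did not overlap, and the log2 fold change was 0.21 ± 0.051 (edgeR adjusted p = 7.34e-04). Psmd1 and Psmd2 are the large scaffold subunits on which ubiquitin receptors and shuttle proteins dock. Psmd1 had 121, 129 and 118 CPM in senescent-medium libraries and 143, 142 and 139.5 CPM in control-medium libraries. Every control-medium library stood above every senescent-medium one, and the log2 fold change was −0.20 ± 0.041 (edgeR adjusted p = 1.14e-04).

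Psmd2 had 287, 268 and 271 CPM in senescent-medium libraries and 304, 292 and 301 CPM in control-medium libraries, the highest CPM of all members. Its groups did not overlap, with a log2 fold change of −0.12 ± 0.036 (edgeR adjusted p = 0.0056), and −0.10 without senescent-medium replicate 2 (adjusted p = 0.0562). The summed level of the 3 base genes was 480.5 ± 11.1 CPM in senescent macrophage medium and 512 ± 9.84 CPM in control macrophage medium (SD, n = 3 each), a ratio of 0.939 with no overlap between libraries.

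In the lid 1 of 8 members was called higher and 3 lower, and it held the members at both ends of the whole range. Psmd8, a scaffold subunit of the lid, had 172, 163 and 161 CPM in senescent-medium libraries and 146, 139 and 135 CPM in control-medium libraries. The groups were far apart, at 165 ± 5.92 and 139.9 ± 5.85 CPM (SD, n = 3 each), with a log2 fold change of 0.24 ± 0.040 (edgeR adjusted p = 9.02e-06). Psmd12, another scaffold subunit, had 44.1, 44.6 and 45.9 CPM in senescent-medium libraries and 58.3, 54.7 and 49.7 CPM in control-medium libraries. Its senescent-medium libraries were tightly grouped below all of the control-medium ones, with a log2 fold change of −0.27 ± 0.058 (edgeR adjusted p = 2.07e-04). It was the only member whose call held under all 19 alternative settings.

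Psmd3, also a scaffold subunit, had 128, 128 and 124 CPM in senescent-medium libraries and 146, 136 and 137 CPM in control-medium libraries, without overlap (log2 fold change −0.14 ± 0.040; edgeR adjusted p = 0.00492). Psmd7, the partner of the deubiquitinase Psmd14, had 85.7, 83.3 and 86.9 CPM in senescent-medium libraries and 97.1, 89.7 and 89.4 CPM in control-medium libraries. Its libraries did not overlap either, but its log2 fold change of −0.11 ± 0.045 (edgeR adjusted p = 0.0448) was near the threshold. It was not called without any one of the senescent-medium libraries (adjusted p = 0.0866, 0.168 and 0.0574 for replicates 1, 2 and 3) or without control-medium replicate 1 (0.187).

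The other lid genes did not pass. Psmd14, which cuts ubiquitin chains off substrates, had 69.5, 69.0 and 70.6 CPM in senescent-medium libraries and 75.1, 67.0 and 68.8 CPM in control-medium libraries, an overlapping pair of groups (log2 fold change −0.0098). Psmd11, a lid scaffold subunit, had 54.6, 58.6 and 55.1 CPM in senescent-medium libraries and 62.3, 60.8 and 59.2 CPM in control-medium libraries. These groups did not overlap (log2 fold change −0.12 ± 0.051; edgeR adjusted p = 0.0577), and the test passed without senescent-medium replicate 2 (−0.15, adjusted p = 0.0407). Psmd6 and Psmd13 had log2 fold changes of −0.013 and 0.083, and exons of Sirt3 on the opposite strand cover 10.1% of the exon length of Psmd13.

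Per length of transcript, the members also differed in level. Psmd2 had the highest level in control macrophage medium, at 92.9 CPM per kb in senescent macrophage medium and 101 CPM per kb in control macrophage medium, and was followed by Psmb3 (99.5 and 97.1), Psmb4 (106 and 92.0) and Psmd8 (107 and 90.8). At the low end were Psmd11 (19.7 and 21.3), Psma5 (17.1 and 17.3) and Psma3 (6.72 and 7.12), in which part of the reads went to copies. Length was that of the principal transcript, the longest where several ranked alike (2846 bases for Psma3). The levels per kb and the correlation with length depend on that choice. Between neighbours in this order the control-medium libraries overlapped in 21 of 30 pairs, so most adjacent positions are not separated by the spread. The 6 members called higher had principal transcripts of 914 to 1591 bases and the 5 called lower of 1581 to 3112 bases. Across the 31 members the Spearman correlation of log2 fold change with transcript length was −0.504, against −0.115 over 14625 genes. The members share libraries and genes are not independent replicates, so this is a description. After trends with length and GC content were removed over all genes, 5 members were called higher and 9 lower, and Psma7 was not called (adjusted p = 0.631). The share of all genes called in that fit is not given here, so these counts are not compared with it.

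Several subunit genes have near-identical processed copies in the genome, and reads can be split between them. For 8 members, 14 such copies were listed, at 95% identity or more over 300 bases or more. The copies held 78.4% of the summed reads of Psma3 and 62.2% of those of Psma5. The Psma3 copy Gm13835 had 70.7, 70.3 and 69.4 CPM in senescent-medium libraries and 69.4, 72.9 and 71.0 CPM in control-medium libraries, against 19.6, 18.3 and 19.5 CPM and 21.8, 20.4 and 18.6 CPM for Psma3 itself. The levels of these genes alone are therefore uncertain. With copies added, Psma3 was at 90.2 ± 1.35 CPM in senescent macrophage medium and 92.0 ± 1.87 CPM in control macrophage medium (SD, n = 3 each; log2 fold change −0.030, edgeR adjusted p = 0.595).

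Adding copies changed 1 call. Psmd11, with 36.3% of its reads in copies, was at 88.3 ± 2.82 CPM in senescent macrophage medium and 95.2 ± 1.58 CPM in control macrophage medium (SD, n = 3 each; log2 fold change −0.11 ± 0.043, edgeR adjusted p = 0.0397). Its copies moved apart from one another: Gm14048 was lower (log2 fold change −0.28, adjusted p = 0.00243) and A730017L22Rik higher (0.26, adjusted p = 0.0491). The Psmb5 copy Gm3375 was also lower, at 14.0 CPM in senescent macrophage medium and 16.8 CPM in control macrophage medium (log2 fold change −0.26, adjusted p = 0.0125), and with it added Psmb5 was at 0.0069 (adjusted p = 0.919). For Psmb3, Psma4, Psmd2 and Psmc1 the copies held 9.12%, 6.57%, 3.38% and 2.57%.

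**Figure D3:**
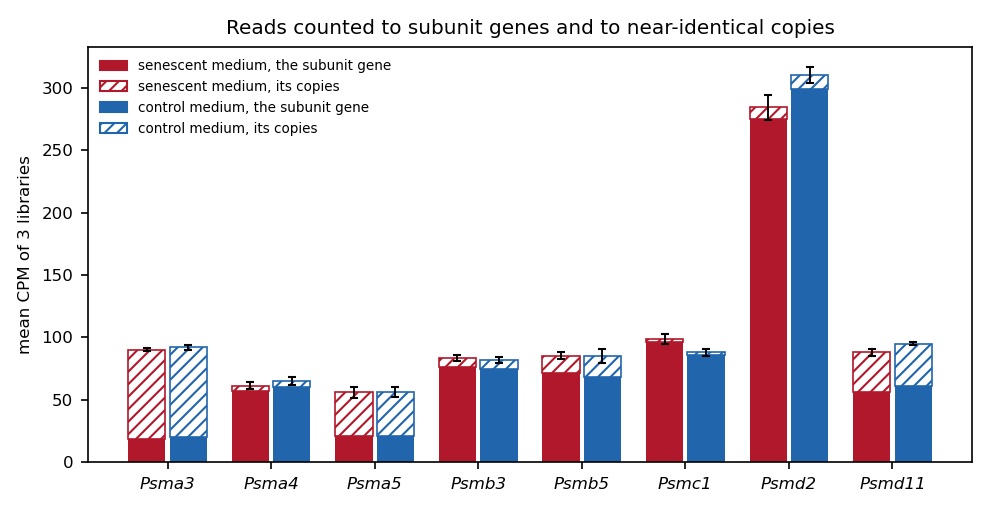
Mean CPM of 3 libraries for the 8 subunit genes with listed near-identical copies, in senescent (red) and control (blue) macrophage medium. Solid bars are reads counted to the subunit gene, hatched bars reads counted to its copies, and error bars the SD of the sum; for Psma3 and Psma5 most of the bar is hatched.

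The interferon-inducible subunits and their cap were all higher in senescent macrophage medium. Interferon-exposed cells build Psmb9, Psmb10 and Psmb8 into new cores in place of Psmb6, Psmb7 and Psmb5, and add the cap made of Psme1 and Psme2, which favours peptides for antigen presentation. All 5 genes were called, with a median log2 fold change of 0.413, against 49.5% of all genes called (24.6% higher). Psmb8 had 9.98, 10.4 and 6.92 CPM in senescent-medium libraries and 5.01, 4.10 and 5.12 CPM in control-medium libraries. Its groups did not overlap, and its log2 fold change was 0.94 ± 0.15 (edgeR adjusted p = 6.92e-06). An antisense gene covers 14.7% of its exon length.

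Psmb9 had 3.17, 1.65 and 3.32 CPM in senescent-medium libraries and 0.845, 0.922 and 1.30 CPM in control-medium libraries. It was the lowest in level and the highest in fold change of the 5, at 1.42 ± 0.29 on the log2 scale (edgeR adjusted p = 1.43e-04). Psmb10 averaged 15.0 ± 1.68 CPM in senescent macrophage medium and 11.3 ± 1.18 CPM in control macrophage medium (SD, n = 3 each; log2 fold change 0.41, edgeR adjusted p = 0.00132). Psme1 and Psme2 were higher by 0.31 and 0.39 (adjusted p = 0.00113 and 0.00929). The Psme2 call was lost without senescent-medium replicate 1 (adjusted p = 0.0609) or control-medium replicate 2 (0.0739), and 78.3% of its reads lie in the near-identical Psme2b.

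Per length of transcript, the inducible subunits remained a small fraction of the constitutive ones. Psmb8 stood at 7.65%, 8.40% and 5.17% of Psmb5 in senescent-medium libraries and 3.75%, 3.41% and 4.37% in control-medium libraries. Psmb9 stood at 2.70%, 1.47% and 2.78% of Psmb6 in senescent-medium libraries and 0.728%, 0.804% and 1.10% in control-medium libraries. Psmb10 stood at 18.2%, 17.2% and 17.0% of Psmb7 in senescent-medium libraries and 13.5%, 11.6% and 12.1% in control-medium libraries. In none of the 3 pairs did the media overlap, and each had a two-sided exact permutation p of 0.1, the smallest that 3 against 3 libraries allow. Macrophage markers did not move together: of 3 tested, 1 was called higher and 1 lower. The summed level of the 4 listed of 8 was 15.0 to 20.1 CPM in senescent-medium libraries and 11.9 to 14.3 CPM in control-medium libraries. Lyz2 was called higher, at 11.7 CPM in senescent macrophage medium and 6.71 CPM in control macrophage medium. Csf1r was called lower, at 3.20 and 4.62 CPM (log2 fold change −0.53, edgeR adjusted p = 0.0248). Cd68, at 1.69 and 1.19 CPM, did not pass (adjusted p = 0.185), and Mrc1, at 0.329 and 0.317 CPM, was not tested. Ptprc, Adgre1, Itgam and Fcgr1 were not listed. The part of the macrophage markers in the inducible subunits' difference was not tested.

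**Figure D4:**
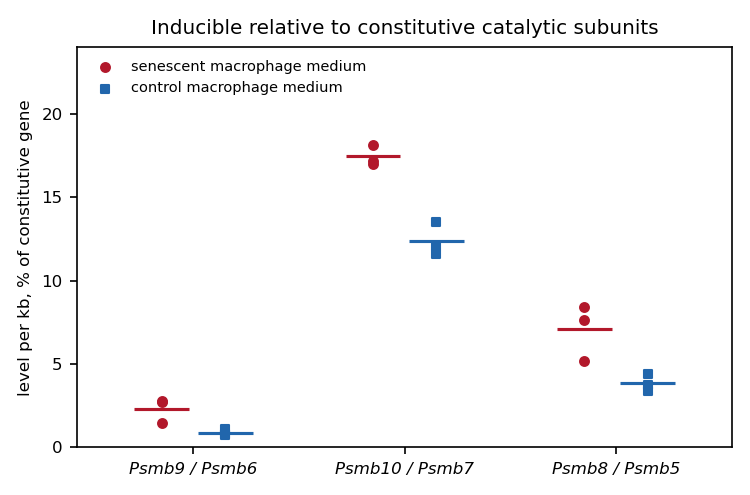
Level of each inducible catalytic subunit per kb of transcript as a percentage of the constitutive subunit it replaces, for 3 senescent-medium libraries (red circles, left) and 3 control-medium libraries (blue squares, right), with means as lines. The media do not overlap in any pair, and the highest value is 18.2%, for Psmb10 over Psmb7.

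The alternative caps and the inhibitor were also higher, 3 of 3 called, against 24.6% of all genes called higher. Psme4, which encodes the nuclear cap PA200, had 118, 112 and 117 CPM in senescent-medium libraries and 84.3, 92.0 and 90.6 CPM in control-medium libraries. The groups were wide apart (log2 fold change 0.38 ± 0.044; edgeR adjusted p = 1.23e-08). Psmf1, whose product PI31 inhibits the core in vitro, averaged 40.1 ± 1.73 CPM in senescent macrophage medium and 33.1 ± 0.578 CPM in control macrophage medium (SD, n = 3 each; log2 fold change 0.28, edgeR adjusted p = 2.73e-04). Psme3, the nuclear cap PA28-gamma, was higher by 0.13 (adjusted p = 0.0171), a call lost with plain library totals (0.380) and without senescent-medium replicate 1 or 2 or control-medium replicate 2 (0.0730, 0.0719 and 0.104).

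Among 8 assembly chaperones tested, 2 were higher and 3 lower (62.5% called, against 49.5% of all genes), and under DESeq2 2 were higher and 1 lower. The higher ones act on the core. Pomp, which guides closure of the beta rings, had 73.7, 70.6 and 72.0 CPM in senescent-medium libraries and 66.3, 60.4 and 61.6 CPM in control-medium libraries, without overlap (log2 fold change 0.20 ± 0.049; edgeR adjusted p = 9.71e-04). Psmg4, which helps to form the alpha ring, had 5.81, 7.46 and 5.58 CPM in senescent-medium libraries and 3.89, 2.86 and 4.16 CPM in control-medium libraries (log2 fold change 0.80 ± 0.17; adjusted p = 2.15e-04). The other core chaperones Psmg1, Psmg2 and Psmg3 were at −0.037, 0.037 and −0.26 and did not pass.

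The lower ones act on the ATPase ring of the base. Psmd5 had 50.7, 43.8 and 45.2 CPM in senescent-medium libraries and 61.7, 66.2 and 58.5 CPM in control-medium libraries. It had the lowest fold change of the chaperones (log2 −0.42 ± 0.059; edgeR adjusted p = 7.51e-07), and its groups did not overlap. Psmd10 (−0.24, adjusted p = 0.0142) and Psmd9 (−0.17, adjusted p = 0.0439) were nearer the threshold. The Psmd10 call was lost without senescent-medium replicate 1 or 3 or control-medium replicate 1 (adjusted p = 0.0568, 0.0570 and 0.0556) and under DESeq2 (0.0593). The Psmd9 call was lost without senescent-medium replicate 2 or 3 or control-medium replicate 1 or 2 (adjusted p = 0.132, 0.103, 0.117 and 0.0764) and under DESeq2 (0.140), and a non-coding gene on the opposite strand covers 25.5% of its exon length.

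NRF1 is the regulator that raises constitutive subunits when activity is short. Of the 4 tested genes on the NRF1 axis list, 3 were called higher, against 24.6% of all genes. The 3 include Nfe2l2, which encodes a related factor and not NRF1. Nfe2l1 had 518, 515 and 504 CPM in senescent-medium libraries and 404, 392 and 413 CPM in control-medium libraries, well separated (log2 fold change 0.35 ± 0.033; edgeR adjusted p = 3.55e-10). Ddi2, the protease that releases NRF1 from its membrane-bound form, had 90.6, 95.6 and 91.3 CPM in senescent-medium libraries and 77.7, 78.6 and 72.2 CPM in control-medium libraries (log2 fold change 0.28 ± 0.046; adjusted p = 7.33e-06). Ngly1, which removes the glycans of NRF1, was at −0.022 (adjusted p = 0.827). Exons of Rsc1a1 on the same strand cover 18.3% of the exon length of Ddi2. Nfe2l2, the related oxidative stress factor NRF2, had 211, 213 and 205 CPM in senescent-medium libraries and 155, 158 and 156 CPM in control-medium libraries, again without overlap (log2 fold change 0.42 ± 0.036; adjusted p = 3.57e-11). These are mRNA levels, and NRF1 and NRF2 are mainly controlled as proteins. Among the 25 members with a promoter window, Psmb6 and Psmb5 hold the element's letters nearest to the start site. They were at 0.0042 and 0.066. Whether NRF1 acts on any member here was not tested.

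Genes that supply substrates were mixed. Of 6 ubiquitin genes 2 were higher and 2 lower, against 24.6% and 24.9% of all genes. With plain library totals 1 was higher and 3 lower, and under DESeq2 or with length and GC trends removed 1 was lower. The polyubiquitin gene Ubb averaged 1209 ± 21.4 CPM in senescent macrophage medium and 1037 ± 43.5 CPM in control macrophage medium (SD, n = 3 each; log2 fold change 0.22, edgeR adjusted p = 2.33e-06). Uba1, the main ubiquitin-activating enzyme, averaged 441 ± 4.07 CPM in senescent macrophage medium and 490.2 ± 2.60 CPM in control macrophage medium (log2 fold change −0.15, adjusted p = 2.12e-04). The other 2 calls, Rps27a higher (0.31) and Uba6 lower (−0.14), were lost without control-medium replicate 2 (adjusted p = 0.0546 and 0.164), and 88.0% of the reads of Rps27a lie in copies.

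Of 8 delivery genes 1 was higher and 4 lower, against 24.6% and 24.9% of all genes. With plain library totals 0 were higher and 6 lower, against 17.7% and 32.9% of all genes. Ubqln4, a shuttle of the ubiquilin family, had 45.0, 45.2 and 41.2 CPM in senescent-medium libraries and 59.9, 59.8 and 56.5 CPM in control-medium libraries, a clear gap (log2 fold change −0.42 ± 0.055; edgeR adjusted p = 1.07e-07). Its relatives Ubqln1 and Ubqln2 were at −0.024 and 0.064 and did not pass. The shuttle Rad23b was higher (0.12, adjusted p = 0.00534), a call lost with plain library totals (0.351). Nploc4, a cofactor of the segregase Vcp, was lower (−0.15, adjusted p = 0.0028). Vcp itself, which pulls ubiquitinated proteins out of complexes and membranes, was lower by a narrow margin (−0.082, adjusted p = 0.0438), and the call was lost without any one library other than control-medium replicate 3 (0.0628 to 0.145). Copies hold 56.4% of its reads. The 7 other subunits and bound enzymes include the receptor Adrm1 and the small subunit Sem1. Of these 7, 0 were higher and 3 lower (42.9% called, against 49.5% of all genes), and with plain library totals 5 were lower. The 3 were the deubiquitinases Uchl5 (−0.36) and Usp14 (−0.11) and the thioredoxin-like Txnl1 (−0.13), and all 3 calls were lost without senescent-medium replicate 2 (adjusted p = 0.158, 0.124 and 0.0502). DESeq2 called 1 of the 7 lower, without Uchl5 (adjusted p = 0.0835) and Usp14 (0.117). With length and GC trends removed, 1 was lower and 1 higher, and Usp14 and Txnl1 were at −0.022 and −0.044 (adjusted p = 0.708 and 0.416). Exons of Thoc1 on the opposite strand cover 26.0% of the exon length of Usp14. Over all 42 other pathway genes tested, 16 were higher and 12 lower (66.7% called, against 49.5% of all genes). All the pathway lists were chosen with earlier results of these data known, so their shares are a description and not a test.

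**Figure D5:**
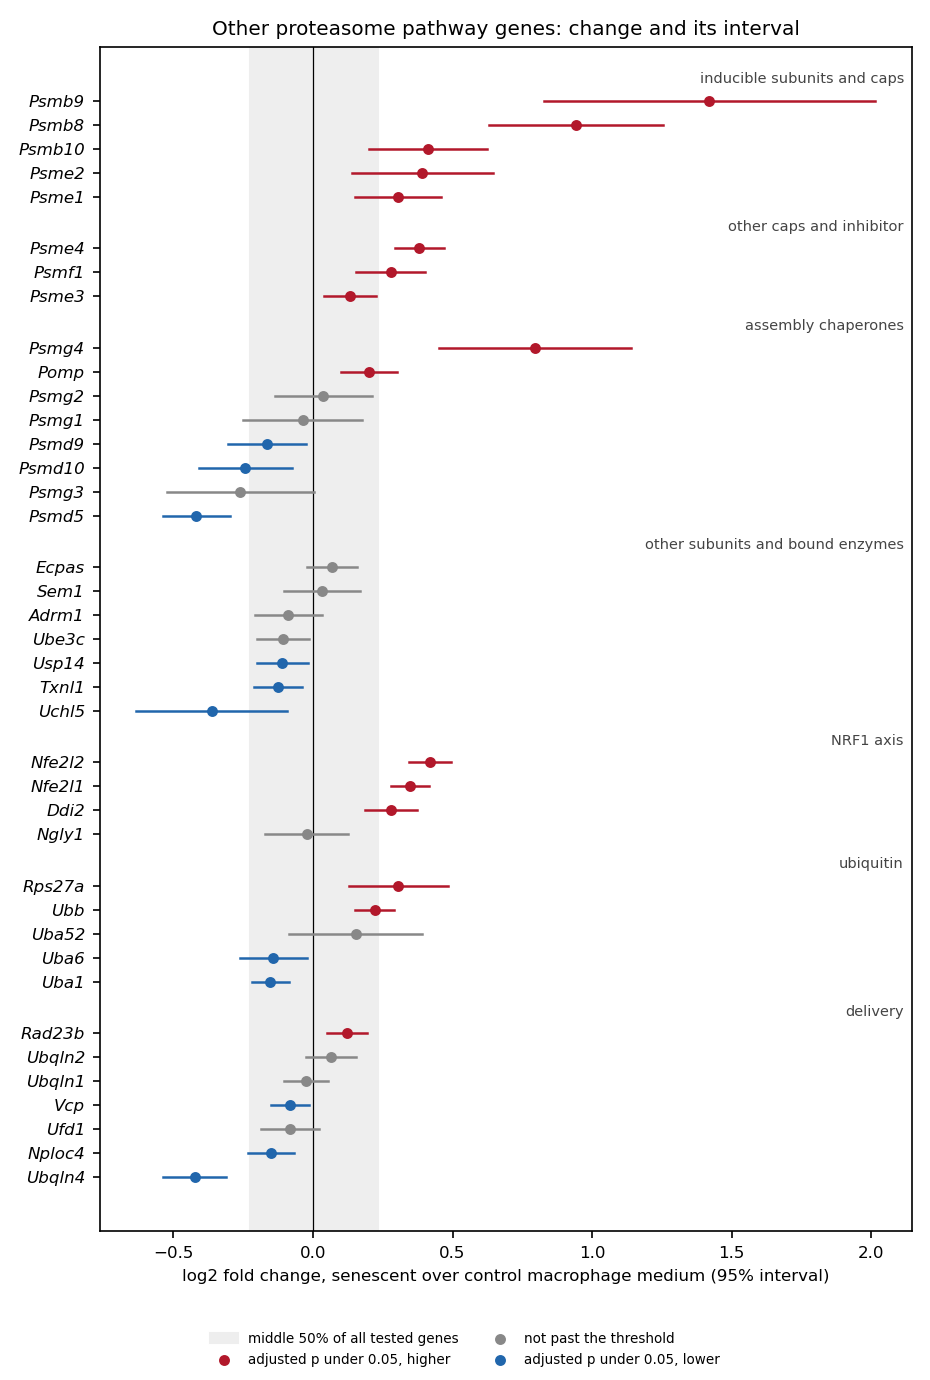
Log2 fold change of other genes of the proteasome pathway, senescent over control macrophage medium, with its 95% interval, by list, for the genes reported here. Colours and the grey band are as for the constitutive subunits; all 5 inducible genes and all 3 other caps and inhibitor genes lie to the right of 0, and Psmb9 is farthest at 1.42.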

How the data were processed

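The authors deposited estimated counts for each Ensembl gene, without normalization. The submitters' processing notes name STAR, DESeq2 and build mm39, without saying what each was used for. Which counter, annotation release and strand setting were used is not given in the sources used here. Symbols, lengths, overlaps and copies came from GENCODE M21 (GRCm38), so promoter coordinates are RefSeq's and the table's are not used. A symbol was found for 18092 of 18124 genes, and every listed gene had at least 10 counts in all. Estimated counts were rounded and tested with edgeR 4.0.16 (R 4.3.3; robust quasi-likelihood F-test, TMM factors, edgeR's expression filter, medium as the only term, two-sided). The SE is the absolute log2 fold change over the square root of F. The method was tested on simulated counts with few changed genes and the same dispersion for all genes. That test does not bear on the choice of scaling. Members and lists were chosen with earlier results of these data known. By rule, all members are named, with library values for the ends of each subcomplex and the catalytic subunits, and any gene of the pathway lists. Library values of Psma3, Psma7, Psmd2, Psmd3, Psmd7, Psmd11 and Psmd14 are given beyond that rule. Alternatives were DESeq2 1.42.0, limma-voom (limma 3.58.1), other scalings, filters and thresholds, a replicate block and each library left out. Removing the most abundant feature, removing length and GC trends, and summing copies were chosen after seeing the data. A few genes of the pathway lists are counted but not reported here by name.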

Additional observations from a re-analysis of the deposited data

How the results depend on the processing

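Under 19 alternatives no called member changed direction. The calls of Psmb4, Psmd1, Psmd3, Psmd4 and Psmd8 were lost only with a minimum of 1.2-fold, and that of Psmd12 was kept. Against 6 members higher and 5 lower, plain library totals gave 3 and 13, a minimum of 1.2-fold gave 0 and 1, and removal of length and GC trends gave 5 and 9. Leaving out 1 library gave 4 to 8 higher and 4 to 6 lower. For the fits with length and GC trends removed or 1 library left out, the share of all genes called is not given here. The alpha ring, with 2 higher, had 1 under DESeq2 and with length and GC trends removed, 0 with library totals, at an adjusted p under 0.01 and at 1.2-fold, and 0 to 2 with 1 library left out. The beta ring had 0 at 1.2-fold and 1 to 3 with 1 library left out, the ATPase ring 0 with library totals and at 1.2-fold, and the non-ATPase base and the lid 0 higher at 1.2-fold. DESeq2 called 5 members higher and 4 lower, against 37.4% of all genes. Same-numbered libraries did not deviate together (correlations 0.0187, 0.00189 and 0.0262), and the fit with the replicate number as a block called 6 higher and 5 lower. With 3 libraries per medium and changes near 0.1 on the log2 scale, calls near the threshold rest on single libraries. The causes were not tested.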
